A study of Mus musculus with 8 samples.

Results

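Midbrain and isthmus identity genes are the genes that define the midbrain and its border with the hindbrain in the embryo. The 8 genes described here were the engrailed genes En1 and En2, the canopy gene Cnpy1, the paired box genes Pax2, Pax5 and Pax8, and the secreted signals Wnt1 and Fgf8. All 8 were found by symbol and Ensembl identifier in both deposited count tables, which shared 40432 genes. The genes were chosen by their measured read counts in these same libraries, where several of them were high in the S89G astrocyte library and near 0 in the others. Their levels are therefore given as a description, with no test.

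The study compared C57BL/6 wild-type (WT) mice with S89G-DMP1 knock-in mice, in which serine 89 of the matrix proteoglycan DMP1 was replaced by glycine. That serine carries the glycosaminoglycan chain of DMP1. Mice were 10 weeks old according to the labels, while the methods give a somewhat older age for the mice of the astrocyte cultures. Astrocytes were cultured from cortex and gave 1 library of each genotype, and neural stem cells (NSCs) were grown as neurospheres from the subventricular zone and gave 3 libraries of each genotype. The knock-in line was made in C57BL/6J embryonic stem cells and crossed to an FLP line of B6.129S4 background, and homozygotes came from intercrosses. Neither the labels nor the methods say whether the 3 NSC libraries of a genotype came from separate mice or cultures, and p-values then measure only the spread between these samples, which may be technical.

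In the embryo, Otx2 and Gbx2 set the position of the isthmus, the narrow border between midbrain and hindbrain. Fgf8 is secreted there and Wnt1 just in front of it, and together they pattern the tissue on both sides. Pax2, Pax5 and Pax8 are paired-domain transcription factors of this border, En1 and En2 are homeodomain transcription factors of the midbrain and anterior hindbrain, and Cnpy1 encodes an endoplasmic reticulum protein that enhances FGF receptor maturation in the zebrafish border. None of these genes is a classical marker of cortex or of the subventricular zone, which are forebrain regions.

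The astrocyte libraries held 14008670 (WT) and 13016924 (S89G) counted reads, and the NSC libraries held 2354615 to 2588130. The astrocyte and NSC tables were processed separately, so levels set side by side across them are on different scales. The library labelled WT astrocytes had 8 counts each of Aqp4 and Slc1a3, the water channel and glutamate transporter of astrocytes, against 4051 and 3877 in the S89G library. For Aqp4 this direction is opposite to that in the paper. The paper reports less AQP4 mRNA and protein in S89G astrocytes differentiated from NSCs and in S89G cortex. The reason for the difference was not tested. Gfap, whose protein was stained to identify the astrocyte cultures, had 90 and 901 counts. Emx2, which marks dorsal forebrain, had 105 counts in the WT and 18 in the S89G astrocyte library, and Emx1, which marks cortex, had 0 and 1. In the 6 NSC libraries Emx2 had 52 to 94 counts. The S89G change is a base substitution in the coding sequence, so the RNA level of Dmp1 does not check the genotype. Dmp1 had 2 counts in the WT and 119 in the S89G astrocyte library.

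The engrailed genes and Cnpy1 were the most abundant of the group. En2 (chr5:28165694-28172166, plus strand; GRCm38, GENCODE M21) had 2 counts in the WT astrocyte library and 1849 in the S89G library. Its level was 0.158 and 128 CPM (counts per 1e6 reads, with library sizes adjusted by TMM scaling), a ratio of 813 with an exact 95% interval of 225 to 6716. That interval and all intervals on astrocyte values cover counting error only, since there was 1 library of each genotype and hence no replicate check of any astrocyte difference.

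Cnpy1 (chr5:28200819-28245806, minus strand) had 0 counts in the WT library, which allows up to 3, and 1200 in the S89G library (83.3 CPM). Against a floor of 3 counts in the WT library, Cnpy1 was at least 352-fold higher in the S89G library. En1 (chr1:120602418-120607992, plus strand) differed from both in that it was counted in the WT library, with 37 counts against 846 in S89G. Its ratio was 20.1 (95% interval 14.5 to 28.7).

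The 3 paired box genes followed at lower counts. Pax2 (chr19:44756045-44837871, plus strand) had 21 counts in the WT and 183 in the S89G library, a ratio of 7.66 (95% interval 4.87 to 12.7). Pax5 (chr4:44524757-44710487, minus strand), which is also the factor that maintains B lymphocyte identity, had 1 and 120 counts, a ratio of 105 (18.6 to 4201). Pax8 (chr2:24420560-24475599, minus strand), which is also a thyroid and kidney factor, had 2 and 119 counts, a ratio of 52.3 (14.2 to 437). Pax2 and En1 thus had WT counts above the floor of 3, and the ratios of En2, Pax5 and Pax8 rest on a WT count of 1 or 2 and have wide intervals.

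The signals of the border were close to absent. Wnt1 (chr15:98789857-98793837, plus strand) had 2 counts in the WT and 7 in the S89G library, a ratio of 3.08 whose 95% interval ran from 0.586 to 30.4. Fgf8 (chr19:45736798-45742915, minus strand) had 0 and 1 counts, both under the floor, so no ratio is given. Of the 8 genes 6 reached 10 counts in either library, and each of these was at least 2-fold higher in S89G, where 17.3% of 15680 counted genes were. Nothing is read from that share, since the same ratios chose the genes. Over all 8 genes there were 65 counts in the WT and 4325 in the S89G library.

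**Figure D1:**
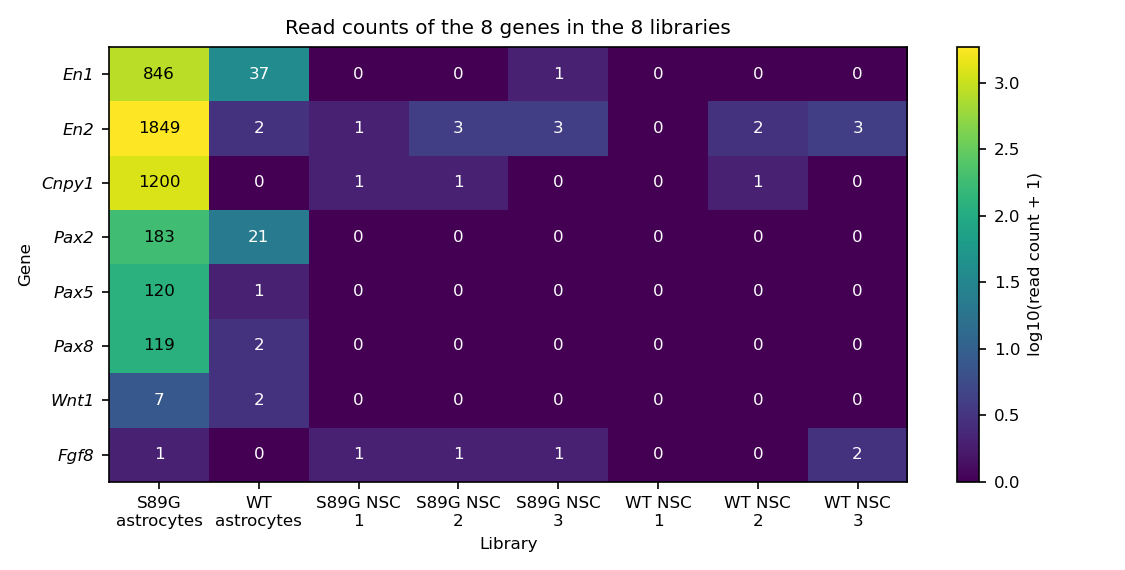
Read counts of the 8 genes (rows) in the 8 libraries (columns), with the count printed in each cell and the colour giving log10(count + 1). Counts of 119 to 1849 appear only in the S89G astrocyte column, for 6 genes, and no NSC count is above 3.

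Levels of different genes were compared per transcript length, from the deposited FPKM values (fragments per kilobase of transcript and per 1e6 reads). Cnpy1 stood highest in the S89G astrocyte library at 45.3 FPKM (95% counting interval 42.8 to 48.0). En2 had 40.1 FPKM (38.3 to 42.0) and En1 24.8 FPKM (23.1 to 26.5), so the order by FPKM differed from that by counts, in which En2 led. The intervals of these 3 neighbours in the order did not overlap. They cover counting error only and take as exact the length behind each FPKM, such as 2034 bases for Cnpy1 and 3539 for En2.

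Pax5 had 7.19 FPKM (5.96 to 8.60), Pax8 6.47 FPKM (5.36 to 7.74) and Pax2 4.55 FPKM (3.92 to 5.26). The intervals of Pax5 and Pax8 overlapped, and those of Pax8 and Pax2 were separated by a narrow margin. This order rests on lengths of 1282 bases for Pax5, 1414 for Pax8 and 3089 for Pax2, which the intervals take as exact. By counts Pax2 (183) was above Pax5 (120) and Pax8 (119). Wnt1 at 0.226 FPKM (0.0909 to 0.466) and Fgf8 at 0.0836 FPKM (0.00212 to 0.466) could not be told apart. In the S89G library 82.6% of counted genes had a lower FPKM than Cnpy1 and 32.9% a lower FPKM than Pax2, so the group ran from well-expressed to low genes. In the WT library the highest of the group was En1 at 1.01 FPKM, with 19.7% of counted genes below it.

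**Figure D2:**
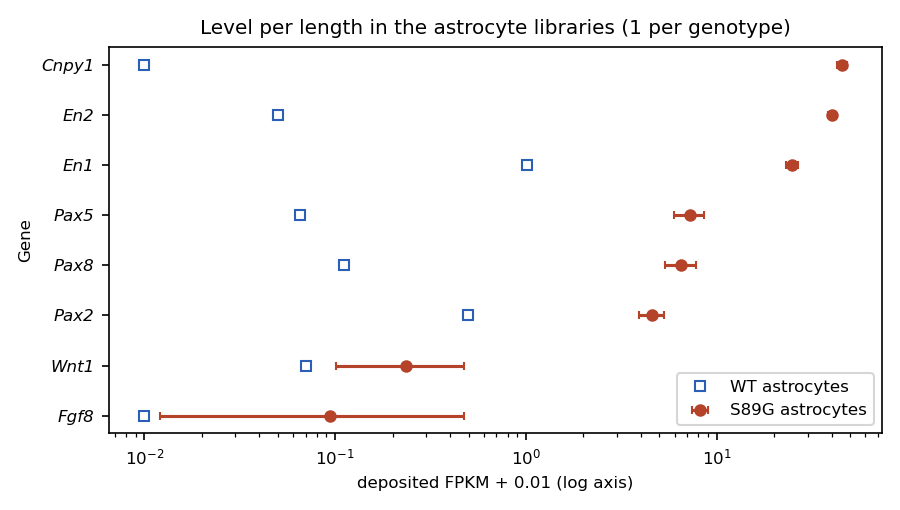
Deposited FPKM plus 0.01 on a log axis for the 8 genes (vertical axis, ordered by S89G level) in the S89G (filled circles, bars are 95% counting intervals) and WT (open squares) astrocyte libraries. Cnpy1, En2 and En1 lie at 24.8 to 45.3 FPKM in S89G, the 3 Pax genes at 4.55 to 7.19, and Wnt1 and Fgf8 at 0.226 or less.

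In NSCs the group was not detectable at this depth in either genotype. Of 48 values (8 genes in 6 libraries), 35 were 0 and 13 were 1 to 3. Pax2, Pax5, Pax8 and Wnt1 had 0 counts in all 6 libraries, where a 0 allows up to 3 counts, or 1.17 to 1.28 CPM. En2 had 1, 3 and 3 counts in the S89G libraries and 0, 2 and 3 in the WT libraries.

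Cnpy1 had 1, 1 and 0 counts in S89G and 0, 1 and 0 in WT NSCs. En1 had 1 count in the third S89G library and 0 in the other 5. Fgf8 had 1 count in each S89G library and 0, 0 and 2 in the WT libraries. The genotypes overlapped for En2, Cnpy1, En1 and Fgf8, and with both at or under 3 counts no fold is given. None of the 8 genes passed the filter on low counts, so none was tested. With that filter removed, 4 of them had a row in edgeR's quasi-likelihood fit, and of these 0 had an unadjusted p under 0.05, as in DESeq2.

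The depth of the NSC libraries bears differently on the members. At the CPM of the S89G astrocyte library, an NSC library would hold 195 to 214 counts of Cnpy1, 137 to 151 of En1 and 29.7 to 32.7 of Pax2. The same figure was 19.5 to 21.4 for Pax5 and 19.3 to 21.3 for Pax8, against observed counts of 0. For Wnt1 (1.14 to 1.25) and Fgf8 (0.162 to 0.179) it was itself below the floor. Counts under the floor in NSCs thus do not place either gene below its S89G astrocyte level. The observed Fgf8 counts were 1 in each S89G NSC library and 0, 0 and 2 in the WT libraries. The expected counts given here assume that CPM compares across the separately processed tables.

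The sequences before the starts of 4 of the 6 genes that were high in the S89G astrocytes are shown because these genes were high in the same library. They are from RefSeq on GRCm38.p6, which held entries for 6 of the 8 genes, and run 5′ to 3′ on the strand of the gene up to the first exon base in RefSeq or GENCODE. Capitals mark CCGGAAG in either orientation, a core of the ETS sites bound by FGF-responsive factors such as Etv4 and Etv5. It was found in 6.91% of all 32851 windows of 250 bases before a start and in 1 of the 9 windows that 6 of the 8 genes have, that of En1. It begins 152 bases before the RefSeq start of En1, which is 83 bases before the first En1 exon base in GENCODE, where the printed stretch ends.
En1, chr1:120602237-120602417, plus strand: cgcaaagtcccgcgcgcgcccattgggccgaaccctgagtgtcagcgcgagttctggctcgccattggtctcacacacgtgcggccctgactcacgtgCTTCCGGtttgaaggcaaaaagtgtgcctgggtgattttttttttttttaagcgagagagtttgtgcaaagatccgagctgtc
Cnpy1, chr5:28245807-28246038, minus strand: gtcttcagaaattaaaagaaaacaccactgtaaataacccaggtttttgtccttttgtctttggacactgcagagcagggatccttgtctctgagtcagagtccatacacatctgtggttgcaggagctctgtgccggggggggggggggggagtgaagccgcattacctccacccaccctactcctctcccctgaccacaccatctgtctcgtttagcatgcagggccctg
Pax5, chr4:44710695-44710944, minus strand: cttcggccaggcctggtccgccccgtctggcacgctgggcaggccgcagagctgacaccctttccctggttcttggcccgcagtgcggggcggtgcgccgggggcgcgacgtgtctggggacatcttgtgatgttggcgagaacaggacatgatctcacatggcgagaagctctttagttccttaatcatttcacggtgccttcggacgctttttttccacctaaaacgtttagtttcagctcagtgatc
Pax8, chr2:24475600-24475849, minus strand: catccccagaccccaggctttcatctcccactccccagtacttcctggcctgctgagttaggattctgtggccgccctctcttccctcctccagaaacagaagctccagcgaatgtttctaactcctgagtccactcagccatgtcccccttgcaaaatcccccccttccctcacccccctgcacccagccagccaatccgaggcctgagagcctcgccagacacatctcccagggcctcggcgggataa

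Another 3 short motifs were searched on both strands of the same windows. TAATTA, a homeodomain core such as engrailed proteins bind, was in 4.84% of all windows. GCGTGAC, part of the paired-domain site of Pax2, Pax5 and Pax8, was in 1.78%, and CTTTGAT, the TCF/LEF site of Wnt signalling, in 3.21%. None of the 3 was in any of the 9 windows, which says only that these letters are not there. The 4 motifs do not overlap in the windows shown.

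Sequence shared between genes could move reads from one gene to another. Among the words of 50 bases in the GENCODE M21 transcripts of En1, En2, Cnpy1, Pax2, Wnt1 and Fgf8, 0 occurred in a transcript of another gene on either strand. The Pax2, Pax5 and Pax8 transcripts shared no such word with each other. Of Pax5 words 7.02% and of Pax8 words 4.43% lay in transcripts of overlapping genes on the opposite strand. The sources used here do not say whether counting used the strand, and the highest S89G count of any gene overlapping one of the 8 was 22, for Gm43610 within En2.

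En2 and Cnpy1 lie 28.7 kb apart on chromosome 5, on opposite strands. Their neighbours on that stretch were, in order, Htr5a, Insig1, En2, Cnpy1, Rbm33 and Shh. Shh, the secreted ventral signal of the neural tube, lies 211 kb beyond Cnpy1 and had 0 counts in the WT and 643 in the S89G astrocyte library, at least 188-fold higher. Rbm33, which lies between Cnpy1 and Shh, had 1016 and 1490 counts, a log2 ratio of 0.37. Insig1, a regulator of sterol synthesis on the other side of En2, had 1612 and 920 counts (log2 ratio -0.99), and the serotonin receptor gene Htr5a had 0 in both.

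**Figure D3:**
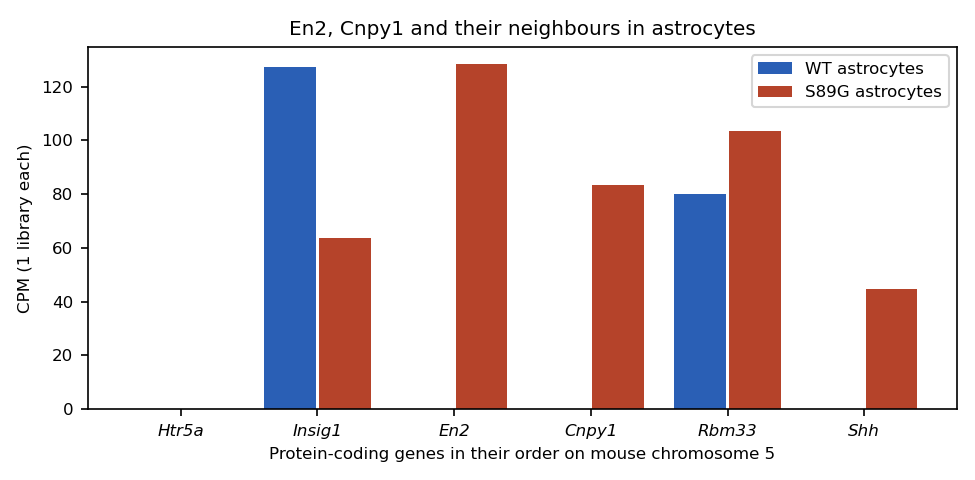
CPM in the WT and S89G astrocyte libraries (bars, 1 library each) of En2, Cnpy1 and the nearest protein-coding genes, in chromosomal order. En2 at 128, Cnpy1 at 83.3 and Shh at 44.6 CPM are near 0 in WT, and Insig1 and Rbm33 have 63.9 to 127 CPM in both libraries.

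Around the 8 genes there were 28 nearest protein-coding neighbours that are not in the group, 2 on each side of each gene. The astrocyte libraries counted 25 of them, with 3 higher in S89G by 2-fold or more and 3 lower, where 17.3% and 12.8% of all counted genes were. The 3 higher were Shh, Melk beside Pax5 (14 and 215 counts), a kinase of dividing progenitors, and Slf2 beside Pax2 (1229 and 3074 counts), a DNA repair factor. The 3 lower were Marco beside En1 (19 and 2 counts), a macrophage receptor, Sema4g beside Pax2 (226 and 118), and Wnt10b beside Wnt1 (19 and 6). The other 19 counted neighbours, among them Psd4 at 5.61 kb from Pax8, were within 2-fold.

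In NSCs 20 of these neighbours were tested. Insig1 rose in S89G NSCs (log2 fold change 0.23 ± 0.05 SE, adjusted p = 0.000924, edgeR) and Sema4g fell (-0.81 ± 0.18, adjusted p = 0.000439). These are 1 higher and 1 lower of 20, where 7.08% and 8.76% of 11194 tested genes were called.

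Genes that work with the 8 at the border were read from lists of transcription factors and of FGF and Wnt pathway genes. For these and the later astrocyte lists, the share over all counted genes was 17.3% at least 2-fold higher and 12.8% lower. In the astrocyte libraries 6 of 10 counted organizer transcription factors were at least 2-fold higher in S89G and 2 were lower, with a median log2 ratio of 1.69 (0.59 with 10 counts asked in both libraries) against 0.01 for all counted genes. Gbx2, the hindbrain-side factor, had 0 and 94 counts (at least 27.5-fold higher), and Otx2, the midbrain-side factor, had 3 and 26 (ratio 7.62, 95% interval 2.34 to 39.3). Lmx1b, which maintains Wnt1 and Fgf8 in the embryo, had 19 and 773 counts (log2 ratio 5.03). Sp8 had 3 and 114 counts (ratio 33.4, 11.1 to 164), and the Wnt target Sp5 went the other way with 55 and 1.

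Of FGF ligands, receptors and feedback genes, 7 of 16 counted were at least 2-fold higher in S89G astrocytes and 0 were lower (median log2 ratio 0.87). The feedback inhibitor Il17rd had 70 and 1767 counts (log2 ratio 4.44), the receptor gene Fgfr3 had 237 and 1777 (2.71), and the ETS factor gene Etv4 had 130 and 595 (1.99). Of the other border ligands, Fgf18 had 87 and 73 counts (log2 ratio -0.43), Fgf17 had 8 and 7, and Fgf15 had 3 and 15, which places Fgf15 among the 7 higher. Of Wnt targets and feedback genes, 4 of 9 were higher and 1 was lower (median 0.85). Axin2, a feedback gene of the pathway, had 84 and 644 counts (log2 ratio 2.73), Lgr5 had 2 and 40, and Nkd2 had 1717 and 148 (-3.70).

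The relatives of the 8 genes split by family. Of the other Pax genes, Pax3 had 16 and 616 counts, Pax6 had 42 and 1039, Pax7 had 1 and 45, and Pax9 had 2 and 73, each at least 2-fold higher in S89G. Pax1 was lower with 32 and 4 counts, and Pax4 was at 0 and 1. The canopy relatives Cnpy2, Cnpy3 and Cnpy4, which are broadly expressed, had log2 ratios of -0.20, -0.52 and -0.90, all within 2-fold. Over the family list 4 of 8 counted genes were higher and 1 lower (median 1.83, but -0.20 with 10 counts asked in both libraries and 0.56 with no filter).

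Genes of other brain regions showed what else was present beside the group. Of ventral midbrain genes 5 of 8 counted were at least 2-fold higher in S89G astrocytes and 2 lower (median 4.46). That median was -0.33 with 10 counts asked in both libraries and 0.22 with no filter, and 4 of the 5 higher genes reached 10 counts in the S89G library alone. Foxa1 and Foxa2, floor plate transcription factors, had 2 and 689 counts (ratio 303, 95% interval 83.5 to 2506) and 1 and 328 counts (ratio 288, 51.4 to 11424). Markers of mature dopamine neurons were not part of this, with Th at 0 in both libraries and Slc6a3 at 2 and 0. Of dorsal midbrain factors 3 of 6 were higher and 3 lower, with no stable median (-0.36, against -3.27 with 10 counts in both libraries or 50 in either and 0.52 with no filter). Pax3 was among the higher, and Tfap2b (1347 and 42 counts) and Gata2 (1026 and 62) were among the lower.

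Of hindbrain and cerebellar genes 9 of 14 counted were at least 2-fold higher and 1 was lower (median 3.15, or 2.72 with the 2 genes at 0 in WT set to 3 counts). With 10 counts asked in both libraries it was -0.10, and with no filter 1.91. The higher genes included 8 of the 10 listed Hox genes, among them Hoxa2 (1 and 181 counts) and Hoxb3 (3 and 154), which mark hindbrain behind the isthmus. Hox genes are not expressed at the isthmus itself. Of forebrain factors 4 of 11 were higher and 4 lower (median 0.14, but -0.57 with 10 counts asked in both libraries). Emx2 (105 and 18 counts) and Eomes (14 and 1) were among the lower, and Lhx2 (51 and 202) and Otx1 (13 and 78) among the higher.

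**Figure D4:**
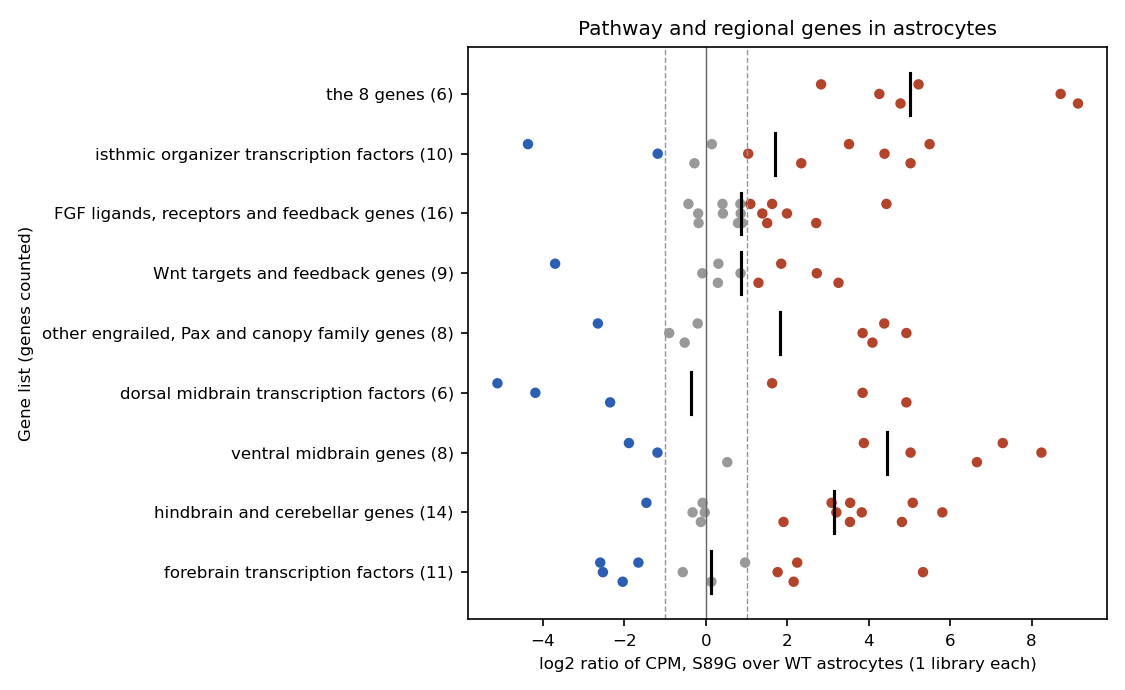
Log2 ratio of CPM, S89G over WT astrocytes (horizontal axis, 1 library each), for each counted gene of the 8 and of 8 pathway and regional lists, with the number counted in brackets. Red is at least 2-fold higher, blue at least 2-fold lower, grey within 2-fold, and the black bar is the median, which ranges from -0.36 for dorsal midbrain to 4.46 for ventral midbrain among the lists.

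Markers of cell types also differed between the astrocyte libraries, where 17.3% of all counted genes were at least 2-fold higher in S89G and 12.8% lower. Of astrocyte markers 9 of 11 counted were at least 2-fold higher in S89G and their summed level was 194 CPM in WT and 1387 in S89G, with Aqp4 the highest in S89G at 281 CPM. Neural progenitor markers were higher for 8 of 9 (734 and 2181 CPM). The exception was Nes (log2 ratio 0.94), which made up most of both sums at 713 and 1368 CPM. Ependymal and choroid plexus markers were higher for 3 of 3 (1.90 and 216 CPM, nearly all Foxj1 at 213). Fibroblast and meningeal markers were lower for 10 of 12 (6302 and 2149 CPM). Col1a1, the highest of them in both libraries (2158 and 1562 CPM), was within 2-fold at a log2 ratio of -0.47. In bulk RNA, more cells of a type and more RNA per cell cannot be told apart, and the part of these markers in the levels of the 8 genes was not tested.

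The remaining cell type lists were less uniform, and several of their shares were near those of all counted genes (17.3% higher and 12.8% lower). Mural cell markers were lower for 4 of 8 and higher for 1 (3380 and 4057 CPM, with Tagln highest in WT and Acta2 in S89G). Endothelial markers were lower for 4 of 7 and higher for 1 (197 and 73.3 CPM, led by Cdh5 in WT and Flt1 in S89G), and microglia markers were higher for 3 of 7 and lower for 1 (542 and 806 CPM, led by Csf1r). Oligodendrocyte lineage markers were higher for 2 of 7 and lower for 1 (203 and 313 CPM, with Pdgfra highest in WT and Olig1 in S89G), and neuron markers were higher for 3 of 5 and lower for 1 (98.1 and 302 CPM, with Tubb3 highest in WT and Map2 in S89G). Epithelial markers of kidney and thyroid, the other tissues of Pax2 and Pax8, summed to 1.97 and 8.47 CPM, mostly Tg in WT and Cdh1 in S89G, and the kidney gene Cdh16 and the thyroid gene Foxe1 were at 0 in both libraries.

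Some genes shared the pattern of En2, Cnpy1, Pax5 and Pax8, which was at least 10 counts in S89G astrocytes with at most 3 in WT astrocytes and in each of the 6 NSC libraries. This held for 348 of 15017 genes with at least 10 counts in the S89G library, and En2 had the highest CPM among them. Ranked by that CPM over these 8 libraries, En2 was followed by Cxcl15 (120.5 CPM), a chemokine known from lung, Cnpy1, Foxa1 (47.8), Shh (44.6), Sh2d4a (35.8), Gm43085 (35.8), A730049H05Rik (29.2), Pi15 (23.4) and Foxa2 (22.8). En1 and Pax2 were not in this set because of their 37 and 21 WT counts. Of the 109 pathway and regional genes, 12 were in it, among them Hoxa2, Hoxb3, Pax7 and Pax9.

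In NSCs the pathway around the group could be tested although the group itself could not. Of FGF genes 14 were tested, 1 was higher and 2 were lower in S89G at an adjusted p under 0.05, where 7.08% of all tested genes were higher and 8.76% lower. Etv5, an ETS factor gene that responds to FGF, had 570, 587 and 552 CPM in the S89G and 831, 841 and 832 CPM in the WT libraries. All 3 S89G values lay below all 3 WT values, and Etv5 fell by 0.55 ± 0.05 (log2 fold change ± SE, adjusted p = 5.6e-14, edgeR).

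Fgfr2, an FGF receptor gene, had 7.58, 4.28 and 5.62 CPM in the S89G and 12.2, 12.8 and 11.6 CPM in the WT libraries. The genotypes did not overlap, and Fgfr2 fell by 1.06 ± 0.26 (adjusted p = 0.00179, edgeR), although DESeq2 gave an adjusted p of 0.0835. Fgfr3 had 142, 137 and 135 CPM in the S89G and 104, 120 and 102 CPM in the WT libraries, without overlap, and rose by 0.34 ± 0.08 (adjusted p = 0.000752, edgeR). Fgfr3 is also an astrocyte marker, and of that list 4 of 9 tested genes were higher and 0 lower, with a summed level of 2787 to 2820 CPM in S89G and 2183 to 2254 CPM in WT NSCs. The part of these markers in the Fgfr3 difference was not tested.

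Of organizer transcription factors 4 were tested and 1 was called, Tle4, a Groucho corepressor that fell by 0.27 ± 0.08 (adjusted p = 0.0162, edgeR). That call was lost without S89G library 1 (adjusted p = 0.118), WT library 1 (0.0801) or WT library 2 (0.0852). Of Wnt genes 5 were tested and 1 was called, the feedback gene Nkd1, which fell by 0.31 ± 0.10 (adjusted p = 0.019). It was lost without S89G library 3 (adjusted p = 0.236) or WT library 3 (0.135), and DESeq2 called neither Tle4 (0.208) nor Nkd1 (0.239).

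Gene counts of the other organizer factors in NSCs were low. Otx2 had 1, 5 and 5 counts in S89G and 0 in each WT library, and Sp8 had 6, 5 and 5 in S89G and 1, 0 and 0 in WT, both too low to pass the filter. Gbx2 had 1, 3 and 4 counts in S89G and 5, 4 and 3 in WT, and Lmx1b was at 0 in all 6. Of the 4 tested relatives, Pax6 and Cnpy2, Cnpy3 and Cnpy4, none was called.

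Among regional genes in NSCs, 1 of 3 tested hindbrain and cerebellar genes and 3 of 8 tested forebrain factors were called. Zic1, a zinc finger factor of the dorsal neural tube and cerebellum, rose from 20.8 ± 1.51 to 46.3 ± 4.43 CPM (mean ± SD, n = 3; log2 fold change 1.15 ± 0.14 SE, adjusted p = 8.9e-10, edgeR). Six3, a factor of anterior forebrain, fell from 24.6 ± 3.25 to 9.97 ± 2.45 CPM (log2 fold change -1.30 ± 0.19, adjusted p = 4.4e-07, edgeR).

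Dlx1, a factor of interneuron progenitors, fell by 1.42 ± 0.40 (adjusted p = 0.00735, edgeR), a call that was lost without S89G library 2 (adjusted p = 0.0899). None of 2 tested ventral and 1 tested dorsal midbrain gene was called, and the 10 listed Hox genes had at most 1 count in any NSC library. Of the other cell type lists in NSCs, progenitor markers were called higher for 2 of 9 (among them Fabp7) and the endothelial gene Flt1 was higher as the 1 tested gene of its list. Lower were Pdgfra, which the fibroblast and oligodendrocyte lists share, Cspg4, which the mural and oligodendrocyte lists share, and the neuron gene Syt1. The ependymal list had 0 of 1 tested genes called, and no microglia or epithelial marker was tested.

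**Figure D5:**
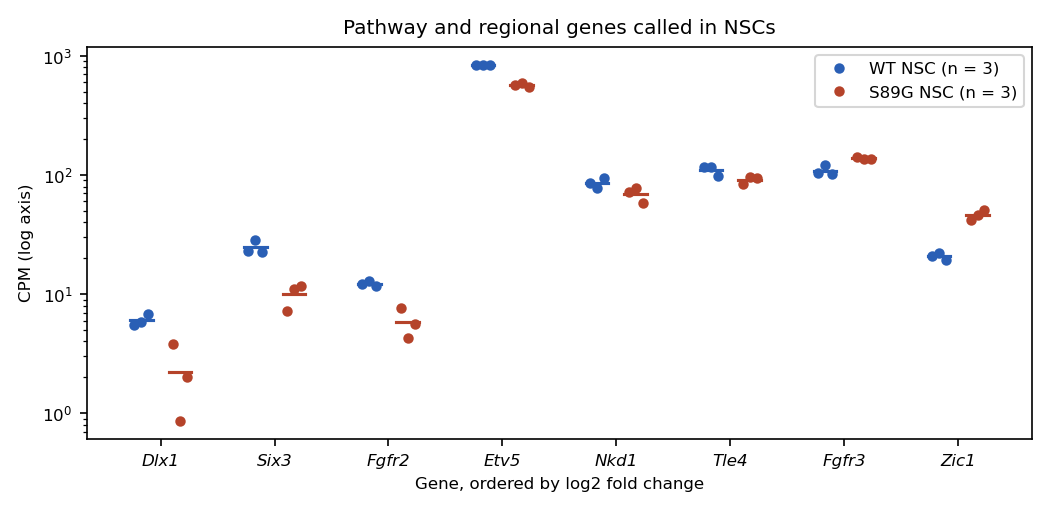
CPM on a log axis of 8 pathway and regional genes called in NSCs, in each of 3 WT and 3 S89G libraries (points, with the group mean as a bar), ordered by log2 fold change. Dlx1, Six3, Fgfr2, Etv5, Nkd1 and Tle4 are lower and Fgfr3 and Zic1 higher in S89G.

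Dmp1 itself had 6, 3 and 5 counts in the S89G and 18, 21 and 16 in the WT NSC libraries. It fell by 1.90 ± 0.38 on the log2 scale (adjusted p = 0.00013, edgeR), without overlap of the genotypes.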

How the data were processed

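The deposited count tables held whole read counts per Ensembl gene, and a further deposited table held FPKM for the astrocyte libraries, which the authors computed per transcript length. Per the labels, the astrocyte reads were aligned with TopHat2 2.0.9 and Bowtie2 2.0.6, with the build and counter not given in the sources used here, and the NSC reads were processed with HISAT2, StringTie and featureCounts on GRCm38. The deposited NSC TPM values were not used because well-counted genes are listed at 0 in some libraries. Gene positions were from GENCODE M21.

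NSC counts (3 against 3 libraries) were filtered with filterByExpr, TMM-scaled and tested across all genes with edgeR 4.0.16 (quasi-likelihood, R 4.3.3, two-sided, Benjamini-Hochberg adjusted p under 0.05). DESeq2 1.42.0 was an alternative. The 2 astrocyte libraries allowed no test: log2 ratios of CPM (TMM scaling, prior count 2) were taken for genes that reached 10 counts in a library, and 2-fold was the limit. Count intervals were exact (Poisson, or conditional binomial for ratios, 95%). A gene at 0 was bounded over 3 counts, and a gene at 1 to 3 was given its ratio and interval in place of the bound first planned. Both procedures were tested on simulated data. Shared words had 50 bases and motif windows 250.

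Named were the 8 genes, Dmp1, called NSC genes and the 3 most changed astrocyte genes of each list, the top marker per library, the 10 leading genes of like pattern and the 2 nearest protein-coding genes on each side. Other named genes were chosen after their values were seen. The 8 genes and all lists were chosen with earlier results of these data known. Some genes of the lists are counted but not reported here by name.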

Additional observations from a re-analysis of the deposited data

Results flagged for a closer look

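Dmp1 and a few genes of the pathway and regional lists went one way in NSCs, where the 3 S89G libraries did not overlap the 3 WT libraries. Between the 2 astrocyte libraries they went at least 2-fold the other way. Cell type markers were left out of this set, although the neuron gene Syt1 also met it (log2 difference -3.00 in NSCs and 3.68 in astrocytes). The difference between the cell types was not tested. The log2 difference of Etv5 was -0.55 in NSCs and 1.39 in astrocytes. For Six3 it was -1.30 in NSCs and 2.16 in astrocytes, and for Zic1 it was 1.15 in NSCs and -1.46 in astrocytes. Dmp1 was at -1.90 in NSCs and 4.78 in astrocytes. None of the 8 midbrain and isthmus genes could be compared in this way, because their NSC counts were at most 3.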

How the results depend on the processing

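In astrocytes all 38 alternative values for the 6 genes with a ratio stayed at least 2-fold higher in S89G, from 1.90 for Pax2 to 11.14 for Cnpy1 on the log2 scale. Asking for 10 counts in both libraries left 2 of the 6 (En1 and Pax2), 1591 genes higher and 17 listed genes higher. It turned the medians of ventral midbrain (-0.33), hindbrain (-0.10) and family genes (-0.20), since it removes genes that are near 0 in WT. The forebrain median also changed sign with it, from 0.14 to -0.57. The dorsal midbrain median had no stable sign, at -0.36, -3.27 with that filter or 50 counts in either library, and 0.52 with no filter. With 4-fold as the limit 1354 genes were higher, 813 lower and 9 listed genes lower, and with log2(FPKM + 1) 1020 genes were lower. Scaling by library size alone moved the median of all genes to 0.30, with 3487 genes higher and 1515 lower. Genes of like pattern numbered 53 at 0 counts and 1112 at up to 10 counts in place of 3.

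In NSCs DESeq2 called 321 genes higher and 424 lower, against 792 and 981 in edgeR, and 2 listed genes lower in place of 6. The cause was not tested. DESeq2 gave no adjusted p for Dlx1. Without the filter 5 listed genes were higher in place of 3. Leaving out each library in turn gave 571 to 733 genes higher and 770 to 926 lower, with 3 to 4 listed genes higher and 5 to 6 lower. Deviations of same-numbered libraries had correlations of 0.028, -0.010 and -0.017. Squared differences between libraries of the same genotype averaged only 1.07 to 1.51 times those of counting noise. Deviations so close to noise could hardly show a pairing, so whether the numbers pair the libraries is left undecided. With the replicate block 829 genes were higher and 1016 lower, with 3 and 6 listed genes. In NSCs a count of 0 allows up to 1.28 CPM, and a count of 1 to 3 allows more. With 1 astrocyte library of each genotype, errors of astrocyte values cover counting only.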
